A study of Rattus with 9 samples.

Results

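Goblet-like epithelial cells of the rat extrahepatic bile duct were selected from 10x Genomics 3' scRNA-seq by 4 goblet marker genes. A barcode was a member if at least 2 of Clca1, Zg16, Spink4 and Retnlb had a unique molecular identifier (UMI, 1 counted mRNA molecule), at least 1 of Epcam, Krt8 and Krt18 had one, and Ptprc and Dcn had none. Each barcode had between 400 and 6000 genes, both limits left out, and at most a minor part of its UMIs from mitochondrial (under 25%) or hemoglobin genes (under 3%). Of 150379 barcodes that met these limits, 33284 were epithelial by the keratin, Epcam, Ptprc and Dcn criteria, and 365 of these were members (1.10%, 95% exact binomial interval 0.988 to 1.21%). Of the 365 members, 0 shared a barcode sequence with a member of another library and 11 (3.01%) with any kept barcode of another library, against 5672 of the 150379 kept barcodes (3.77%).

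Goblet cells are secretory epithelial cells that store and release the gel of mucus lining the gut. The gel is built of Muc2, a large mucin that is folded in the endoplasmic reticulum, dressed with sugars in the Golgi and packed into granules together with Clca1, Fcgbp, Zg16 and trefoil peptides. The transcription factors Atoh1 and Spdef drive this program, and goblet cells are few in the normal bile duct, where the surface is formed by Krt7 and Krt19 positive cholangiocytes. Among the 4 markers, Clca1 is a secreted protease of mucus, Zg16 a lectin-like protein that binds bacteria, Spink4 a Kazal-type protease inhibitor and Retnlb a resistin-like secreted peptide.

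The 9 samples formed 3 groups of rats. The sham group (sham 1, sham 2 and sham 3) had 1 library each. The LT group had liver transplantation with a period of warm ischemia of the graft, sampled at days 1, 3 and 7, and the LT flow group had the same transplantation with the splenic and gastroduodenal arteries tied to raise hepatic arterial flow, sampled at the same days. Each transplanted group had 1 sample a day, with 3 libraries each in LT and 3, 2 and 3 in LT flow. Rats were Sprague-Dawley of both sexes, 6 to 8 weeks old, as far as the methods cover these animals, with no genetic change stated. The flow arm is described in the labels only. Whether the libraries within a sample represent different animals is not labelled, so they were summed and the sample was the unit of every test. Day and sample coincide within an arm, so a day effect and the spread between rats cannot be told apart there. Tests therefore measure only the spread between these samples.

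Total depth ranged from 14398295 to 109245177 UMIs per library, and 2456 to 34192 barcodes per sample were kept. Libraries 2 and 3 of LT day 3 lost 2479 and 3966 barcodes to the hemoglobin limit, kept 437 and 337, and held 0 members. Barcodes of 100 UMIs or fewer, which carry free RNA, held Zg16 at 53.8 to 1275 counts per 1000000 UMIs (CPM) in the sham libraries and 0 to 126 CPM in the transplanted ones. Free Spink4 stood at 0.838 to 3.28 CPM in sham and 0 to 741 CPM in transplanted libraries. Cells that should lack the markers rarely met the marker criterion. At least 2 markers were detected in 3 of 47212 immune barcodes (0.00635%), in 25 of 14203 stromal barcodes (0.176%) and in 0 of 3448 endothelial barcodes, which allows a share of up to 0.0870%. Sham 3 gave 17 of the 25 stromal barcodes, a share of 0.461% there against 1.76% of its epithelial barcodes, with Zg16 detected in 13.3% of its stromal barcodes. Their median depths were 3602, 7328 and 5422 UMIs, against 3422 in epithelial barcodes.

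Members were found in all 9 samples but were few in most. Sham 1 held 6 members among 1188 epithelial barcodes (0.505%), sham 2 held 12 of 2695 (0.445%) and sham 3 held 47 of 2674 (1.76%). Day 1 had 91 of 6532 in LT (1.39%) and 132 of 5339 in LT flow (2.47%). Day 3 had 19 of 1071 in LT (1.77%) and 40 of 3943 in LT flow (1.01%). Day 7 had 10 of 3939 in LT (0.254%) and 8 of 5903 in LT flow (0.136%). Day 7 was the lowest day in both arms, and sham 3 lay above both other sham samples.

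The libraries of 1 sample differed as much as the samples did. Library 3 of LT flow day 1 held 102 of that sample's 132 members, or 4.18% of its 2440 epithelial barcodes, against 0.717% and 1.33% in its other libraries. LT day 1 ranged from 0.715% to 2.14% over its libraries, and all 19 members of LT day 3 came from library 1. In 4 of the 20 libraries no member was found.

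**Figure D1:**
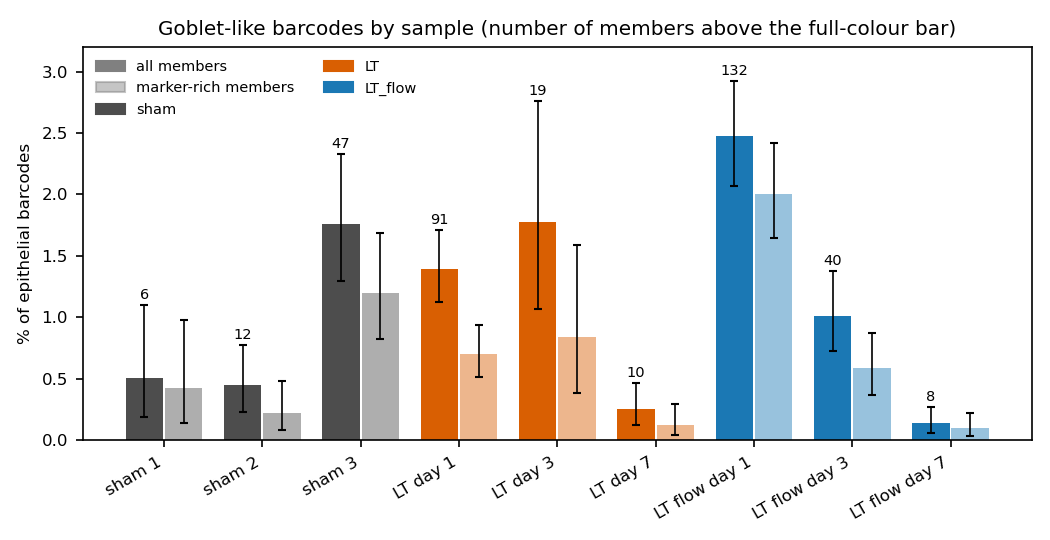
Share of epithelial barcodes (%) that were goblet-like in each sample, for all members (full colour, with their number) and for marker-rich members (pale), with 95% exact binomial intervals that cover counting error only. Sham samples lie between 0.445% and 1.76% and transplanted samples between 0.136% and 2.47%, with the lowest values at day 7.

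The share did not separate the groups beyond the spread between samples. It averaged 1.17% ± 0.899 (SD, n = 6) in transplanted and 0.903% ± 0.741 (SD, n = 3) in sham samples, a difference of 0.271 percentage points (two-sided exact permutation test over 84 splits, p = 0.655). LT flow averaged 1.21% ± 1.18 and LT 1.14% ± 0.791 (SD, n = 3 each), a difference of 0.0671 percentage points (two-sided exact permutation p = 1, where 0.1 is the smallest p that 3 against 3 samples allow). By day, LT flow minus LT was 1.08 percentage points at day 1, with -0.76 and -0.118 points at days 3 and 7. The sign of the mean flow difference rested on single samples, being -0.565 without LT flow day 1, -0.376 without LT day 7 and 0.603 without LT flow day 7. The transplant difference was 0.699 without sham 3, 0.0115 without LT flow day 1, 0.0425 without sham 2 and 0.0724 without sham 1.

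The depth of a barcode bears on the rule, because a deep barcode can pass with 1 UMI of each marker. When every epithelial barcode was thinned to 2000 UMIs and shallower ones were left out, the share was 0.645% in transplanted and 0.304% in sham samples, with a difference of 0.341 percentage points (two-sided exact permutation p = 0.417). This left out 10706 of the 33284 epithelial barcodes. After thinning, 13 sham, 38 LT and 65 LT flow barcodes were members, against 65, 120 and 180 before. The median depth of members before thinning was 2478, 13718 and 2703.5 UMIs in these groups. The loss of members was thus uneven between groups.

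The members fell into marker-rich and marker-poor barcodes. At a density of at least 10 marker UMIs per 10000 UMIs, 239 members were marker-rich, with a median of 244 marker UMIs per 10000. The other 126 had a median of 2.38 per 10000. Only 43 of 365 lay between 5 and 20 per 10000. Marker-rich barcodes were shallow, with a median of 2068 UMIs, 844 genes and 47 marker UMIs, whereas marker-poor barcodes had a median of 24719 UMIs, 4217 genes and 4 marker UMIs. Depth differed by group. Marker-rich members had a median of 1383 UMIs in sham, 3802 in LT and 1988.5 in LT flow. Marker-poor members had 8887.5 in sham and 29863.5 in transplanted samples. A shallower barcode reaches the line with fewer marker UMIs. The division into marker-rich and marker-poor was drawn after the values were seen. Only the share of marker-rich members was tested by group, as an alternative chosen after seeing the data.

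**Figure D2:**
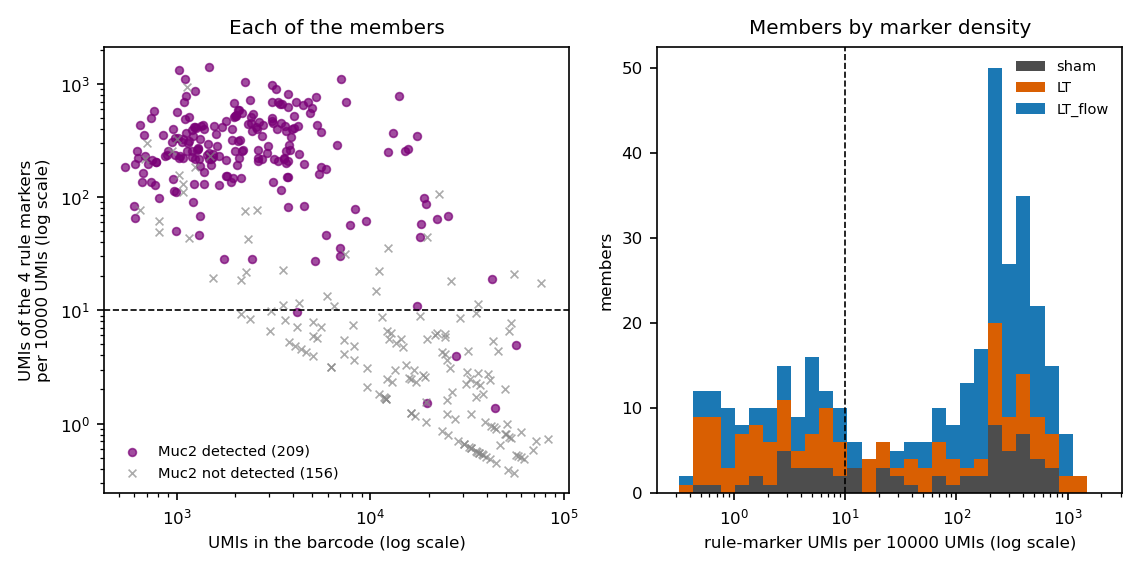
Left, the density of the 4 rule markers (UMIs per 10000 UMIs, log scale) against the UMIs of each of the 365 members (log scale), coloured by whether Muc2 was detected. Right, the number of members by marker density in sham, LT and LT flow. Most members with Muc2 lie above the dashed line at 10 per 10000, and most members without it are deep barcodes below the line.

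Goblet genes that the rule did not use followed the same division. Muc2 was detected in 204 of 239 marker-rich members (85.4%), in 5 of 126 marker-poor members (3.97%) and in 168 of 32919 other epithelial barcodes (0.510%). Fcgbp, the IgG Fc-binding protein of mucus, was detected in 95%, 44.4% and 21.7% of them, and the trefoil peptide Tff3 in 99.6%, 94.4% and 49.1%. Krt7, the cholangiocyte keratin, was detected in 66.1%, 92.9% and 62.3%. The goblet label therefore held for the marker-rich members. Marker-poor members mostly lacked Muc2 at their larger depth, while Tff3 and Fcgbp were detected in more of them than of the other epithelial barcodes. Larger depth raises detection. In mean CPM over the 4 samples with at least 20 members, Fcgbp was close (208 against 175) and higher in marker-poor members in 2 samples. Tff3 was higher in all 4 (8127 against 3127 CPM). A doublet score marked 3.35% of marker-rich, 13.5% of marker-poor and 4.30% of other epithelial barcodes.

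Marker-rich members numbered 5, 6 and 32 in sham 1, sham 2 and sham 3. They numbered 46, 9 and 5 in LT and 107, 23 and 6 in LT flow at days 1, 3 and 7. As a share of epithelial barcodes they ranged from 0.223% to 1.20% in sham, from 0.127% to 0.840% in LT and from 0.102% to 2.0% in LT flow. Transplanted samples exceeded sham by 0.113 percentage points on average (exact permutation p = 0.833).

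The Muc2 share rose with the number of markers across the limit of the rule. Among epithelial barcodes with exactly 1 marker, which lie just outside it, Muc2 was detected in 1.64% of 2985 barcodes. Just inside, with exactly 2 markers, Muc2 was detected in 33.3% of 228 barcodes. With 3 markers it was detected in 96.8% of 95, and with all 4 in 97.6% of 42. Of the barcodes outside, 1315 had Clca1 alone, 937 Spink4 alone, 705 Zg16 alone and 28 Retnlb alone. Those with Spink4 alone were transplanted in 936 cases, and those with Zg16 alone were sham in 588 cases, in each case the group in which free RNA of that gene reached its highest levels. The 2 genes differed in cells that should lack them. Spink4 was detected in 0.599% of immune, 1.6% of stromal and 9.17% of epithelial barcodes of LT day 1. Zg16 was detected in 12.3%, 13.3% and 15.3% of those of sham 3. Free Spink4 had a median of 6.98 CPM over the transplanted libraries. Its highest level, 741 CPM, was that of LT day 3 library 3, with 64 epithelial barcodes. The part of free RNA in the barcodes with 1 marker was not tested.

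Clca1 was the marker most members shared. It was detected in 353 of 365 members, Spink4 in 237, Zg16 in 167 and Retnlb in 152. The pair Clca1 and Spink4 alone made up 121 members, of which 86 were marker-poor. Clca1 with Retnlb alone made up 50 members and Clca1 with Zg16 alone 45. Another 95 carried 3 markers and 42 carried all 4.

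The marker that brought a cell into the class differed between sham and transplanted ducts. Spink4 was detected in 4 of 65 sham members and in 233 of 300 transplanted members. Among marker-rich members the share was 4 of 43 in sham and 137 of 196 in transplanted samples. Retnlb was detected in 34 of 43 sham and 114 of 196 transplanted marker-rich members, and Zg16 in 20 of 43 and 111 of 196. These genes chose the members, so the values are a description with no test.

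Levels were compared in the 4 samples with at least 20 members, sham 3, LT day 1, LT flow day 1 and LT flow day 3. They are given as mean CPM over these samples and as log2 ratios of mean CPM with 1 CPM added. No test is given, since the rule selected these cells. Of 7853 genes with at least 10 CPM in marker-rich or other epithelial barcodes, 650 (8.28%) were more than 2-fold higher and 911 (11.6%) more than 2-fold lower in marker-rich members, with a median log2 ratio of -0.12. Each list count was also computed with each of the 4 samples left out, an alternative chosen after seeing the data, and is given where it moved most. For all members the shares were 1.5% higher and 4.93% lower of 7478 genes.

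The rule genes were very high in the marker-rich members. Clca1 averaged 8787 CPM in marker-rich, 98.7 in marker-poor and 19.5 in other epithelial barcodes. Spink4 averaged 4629, 96.4 and 41.1 CPM, and Retnlb 1914, 2.09 and 0.171 CPM. Zg16 averaged 4058 CPM in marker-rich and 24.9 CPM in marker-poor members. Its 124 CPM in other epithelial barcodes came from sham 3 (495 CPM), and in LT day 1 and LT flow day 1 it was higher in marker-poor members (13.2 and 5.53 CPM) than in other epithelial barcodes (1.22 and 1.57 CPM).

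The secretory products of goblet cells were concentrated in the marker-rich members. Of 14 listed products with at least 10 CPM, 12 were more than 2-fold higher there and 0 lower, with a median log2 ratio of 4.37. Muc2 averaged 4322 CPM ± 2390 (SD, n = 4) in marker-rich, 3.42 in marker-poor and 1.81 CPM in other epithelial barcodes, a log2 ratio of 10.58 to the other epithelial barcodes. Tff3 took 74158 CPM ± 26004, against 8127 and 3127 CPM. Fcgbp averaged 8951, 208 and 175 CPM. Agr2, a disulfide isomerase needed to fold Muc2, averaged 10916, 4173 and 1520 CPM, and was thus graded over the 3 sets of barcodes where Muc2 was not.

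Further secretory genes showed the same concentration at lower levels. The guanylin gene Guca2a, whose peptide drives intestinal fluid secretion, averaged 545, 27.8 and 29.5 CPM in marker-rich, marker-poor and other epithelial barcodes, and its relative Guca2b 175, 6.32 and 9.04 CPM. The membrane mucin Muc13 averaged 410, 21.3 and 75.7 CPM. The granule-associated genes Rep15 and Fer1l6 and the protease Capn9 had 26.8, 34.5 and 23.6 CPM in marker-rich members, 0 CPM in marker-poor members and at most 0.107 CPM in other epithelial barcodes. Klk1 and Capn8 were the 2 listed products within 2-fold, with log2 ratios of 0.77 and 0.95, and without sham 3 that of Klk1 was 2.95.

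Factors of the secretory lineage were higher to different degrees. Of 14 listed factors with at least 10 CPM, 9 were more than 2-fold higher in marker-rich members and 0 lower, with a median log2 ratio of 1.23. Atoh1, which commits gut progenitors to the secretory fate, averaged 100 CPM in marker-rich, 1.35 in marker-poor and 0.889 CPM in other epithelial barcodes, and was detected in 24.7%, 0.794% and 0.456% of them. Spdef, which drives goblet maturation, averaged 341, 112 and 47.1 CPM, Foxa3 179, 45.5 and 21.8 CPM and Creb3l4, a transducer of secretory stress, 206, 77.4 and 43.9 CPM. Foxa2 and Sox9, which cholangiocytes also use, had log2 ratios of -0.12 and -0.25 in marker-rich members, and that of Sox9 was 0.32 without sham 3.

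Enzymes of mucin glycosylation and folding formed a further high group, with 14 of 22 more than 2-fold higher and 1 lower, and a median log2 ratio of 1.38. Galnt6 and Galnt5, which attach the first sugar of O-glycans, averaged 264 and 98.1 CPM in marker-rich members, against 14.7 and 9.21 CPM in other epithelial barcodes. Galnt7 averaged 416 against 81.3 CPM. The fucosyltransferase Fut2 averaged 289 against 45.2 CPM, and C1galt1, which builds the core 1 glycan, 456 against 149 CPM. The sialyltransferase St3gal6 was the lower gene, at 7.12 against 19.2 CPM.

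**Figure D3:**
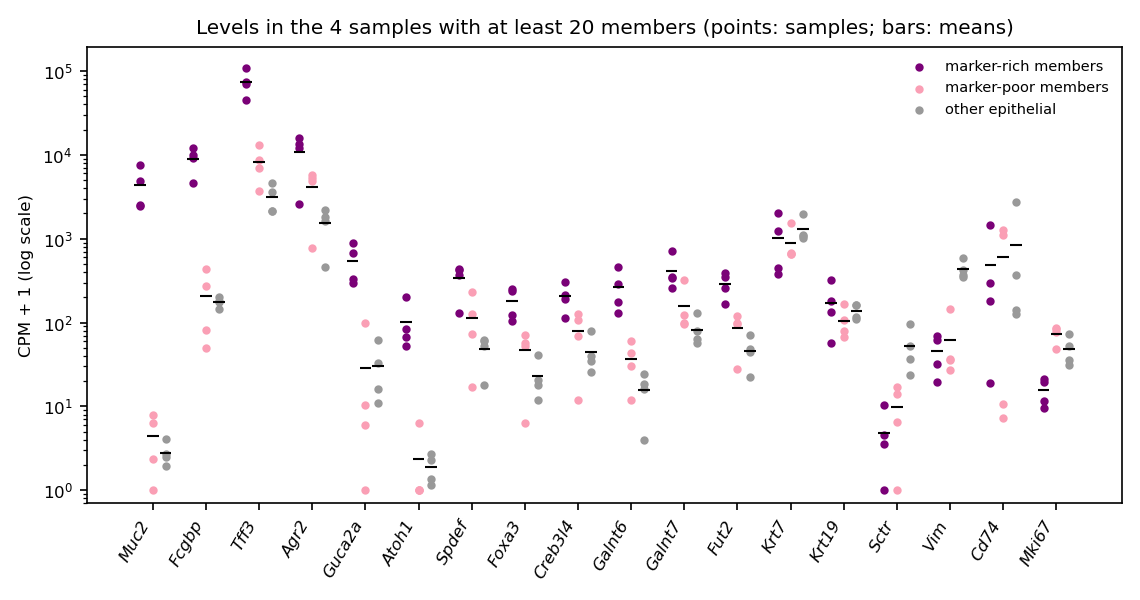
CPM (with 1 added, log scale) of 18 genes in marker-rich members, marker-poor members and other epithelial barcodes, with 1 point for each of the 4 samples with at least 20 members and a bar at the mean. Muc2 and Atoh1 are near the floor in marker-poor members, whereas Tff3, Agr2 and Spdef lie between the marker-rich and the other epithelial barcodes.

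The unfolded protein response, which secretory cells use to raise their folding capacity, was modestly higher. Of 19 listed genes, 4 were more than 2-fold higher in marker-rich members and 0 lower, with a median log2 ratio of 0.53. These were Asns (1.62), Xbp1 (1.26), Herpud1 (1.22) and Sel1l (1.11). The chaperone Hspa5 had a log2 ratio of 0.85.

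Several intestinal genes were higher in marker-rich members. Of 12 intestinal identity genes with at least 10 CPM, 8 were more than 2-fold higher and 0 lower, among them Lgals4 (3166 against 1189 CPM), Krt20 (320 against 141 CPM), the junction gene Cldn15 (65.0 against 1.87 CPM) and the intestinal factor Cdx2 (53.8 against 25.6 CPM). The enterocyte fatty acid-binding gene Fabp2 was low in both, at 10.7 against 0.788 CPM. The villus gene Vil1 was at 12.0 CPM in marker-rich and 21.7 CPM in other epithelial barcodes, with a log2 ratio of 0.25 without sham 3.

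Biliary genes were not raised. Of 19 listed biliary genes, 0 were more than 2-fold higher and 7 lower in marker-rich members, with a median log2 ratio of -0.53. Krt7 averaged 1023 CPM in marker-rich and 1292 CPM in other epithelial barcodes, Krt19 171 and 136 CPM, and the secretin receptor Sctr 3.85 and 51.2 CPM (log2 ratio -3.43, and -2.62 without sham 3). Scgb1c1 and Gast were at 0 CPM in marker-rich members. Their levels in other epithelial barcodes, 57.6 and 13.1 CPM, came mostly from sham 3 (219 and 39.9 CPM), against 1.75 to 6.70 and 3.40 to 5.11 CPM in the other 3 samples.

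Tuft and cell cycle genes were mostly lower in the marker-rich members. All 4 tuft genes with at least 10 CPM were more than 2-fold lower. So were 6 of 8 enteroendocrine and islet genes (the other 2 were higher) and 8 of 9 acinar genes, but these counts rested on sham 3. There the trypsinogen gene Prss1 stood at 2581 CPM and the insulin gene Ins1 at 1976 CPM in other epithelial barcodes, against 0.0362 to 10.3 and 0.0724 to 0.124 CPM in the other 3 samples. Without sham 3, 2 of 4 enteroendocrine and islet genes were lower and 2 higher, and the 1 acinar gene left at 10 CPM was higher. Vim averaged 44.6 CPM in marker-rich, 60.6 in marker-poor and 431 CPM in other epithelial barcodes. Of 16 cell cycle genes, 9 were more than 2-fold lower in marker-rich members, with a median log2 ratio of -1.25, and Mki67 averaged 14.6, 72.5 and 47.0 CPM in the 3 sets of barcodes. Of 6 immune genes 1 was more than 2-fold lower and 0 higher, and their median log2 ratio of 0.29 lay between -0.47 and 0.81 with 1 sample left out, negative without sham 3 and without LT flow day 3. Of 7 gastric and pyloric genes 4 were more than 2-fold higher and 0 lower, but without LT flow day 3 it was 2 higher and 1 lower of 5. Tff1 averaged 4705 CPM ± 5802 (SD, n = 4) against 990 CPM, with 12929 CPM in LT day 1, and was lower than in other epithelial barcodes in LT flow day 1 (110 against 540 CPM). It was detected in 25.1% of marker-rich, 87.3% of marker-poor and 28.9% of other epithelial barcodes. Of 26 interferon and antigen presentation genes, 10 were more than 2-fold lower, including the class II genes RT1-Da (160 against 370 CPM) and RT1-Db1 (88.6 against 344 CPM). Without LT flow day 3 it was 5 of 19, and the log2 ratio of RT1-Da was -0.05.

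Outside these lists the highest ratios included Ramp1, a receptor partner for calcitonin-family peptides, at 574 CPM in marker-rich and 20.7 CPM in other epithelial barcodes. Hepacam2 averaged 249 against 12.1 CPM, Clca2 206 against 10.3 CPM and the selenoprotein gene Selenom 1395 against 95.2 CPM. Retnla, a relative of Retnlb, averaged 199 against 0.0251 CPM. Some genes of this ranking rested on 1 sample. Pla2g4c averaged 1302 CPM ± 2605 in marker-rich members, of which sham 3 alone gave 605 UMIs and the other 3 samples 0. Tff2 averaged 438 CPM ± 837 and was detected in 3.35% of marker-rich members.

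Marker-rich members are shown for all 9 samples as summed UMIs, including samples with as few as 5 barcodes. Agr2 stood at 4023, 3213 and 2609 CPM in sham 1, sham 2 and sham 3. It stood at 15660, 23354 and 10743 CPM in LT at days 1, 3 and 7 and at 11989, 13404 and 5954 CPM in LT flow. All transplanted samples lay above all sham samples, and the log2 ratio of the means was 2.04. Tff3 stood at 49169, 43377 and 44868 CPM in sham and at 70342 to 124940 CPM in transplanted samples, a log2 ratio of 1.11, again without overlap. Spdef ranged from 129 to 298 CPM in sham and from 365 to 552 CPM in transplanted samples. Marker-rich members were shallower in sham (median 1383 UMIs) than in LT (3802) and LT flow (1988.5). The part of depth in these values was not tested.

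These separations depended on where the marker-rich line was drawn. With at least 5 marker UMIs per 10000 the log2 ratios were 2.21 for Agr2, 1.19 for Tff3 and 1.28 for Spdef, and with doublets removed 2.06, 1.14 and 1.17, without overlap in either. With at least 20 marker UMIs per 10000 the log2 ratios of transplanted to sham were 0.86 for Agr2, 0.05 for Tff3 and 0.22 for Spdef, and the groups overlapped for each gene. In members with at least 3 of 4 markers, which left 2 sham samples, they were 0.57, -0.03 and -0.43. The shift lay in the sham samples: with the line moved from 10 to 20 per 10000, mean Agr2 went from 3282 to 7567 CPM in sham and from 13517 to 13761 CPM in transplanted samples.

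Muc2 and Fcgbp did not separate the groups. Muc2 stood at 1341, 5738 and 2523 CPM in sham, at 4825, 4873 and 1242 CPM in LT and at 7500, 2439 and 7535 CPM in LT flow. Fcgbp ranged from 8046 to 13464 CPM in sham and from 4564 to 34617 CPM in transplanted samples. The regenerating islet-derived lectin Reg3g, an antimicrobial product, ranged from 74.5 to 2945 CPM in sham and from 2119 to 45870 CPM in transplanted samples, with 41755 and 45870 CPM at day 1 of LT and LT flow.

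The rule genes varied by sample. Spink4 was 74.5, 0 and 51.7 CPM in sham, 5024, 3828 and 0 CPM in LT and 9372, 4068 and 211 CPM in LT flow, so that day 7 was low in both arms. Retnlb was 442, 658 and 585 CPM in LT, 3209, 1945 and 2898 CPM in LT flow and 1192, 4399 and 2058 CPM in sham. Retnlb chose the members, so its lower values in LT are a description with no test, and LT day 7 held 5 marker-rich barcodes. Clca1 ranged from 8195 to 11093 CPM in sham and from 4344 to 14411 CPM in transplanted samples. Zg16 was 0, 2257 and 646 CPM in sham and 1754 to 9910 CPM in transplanted samples.

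**Figure D4:**
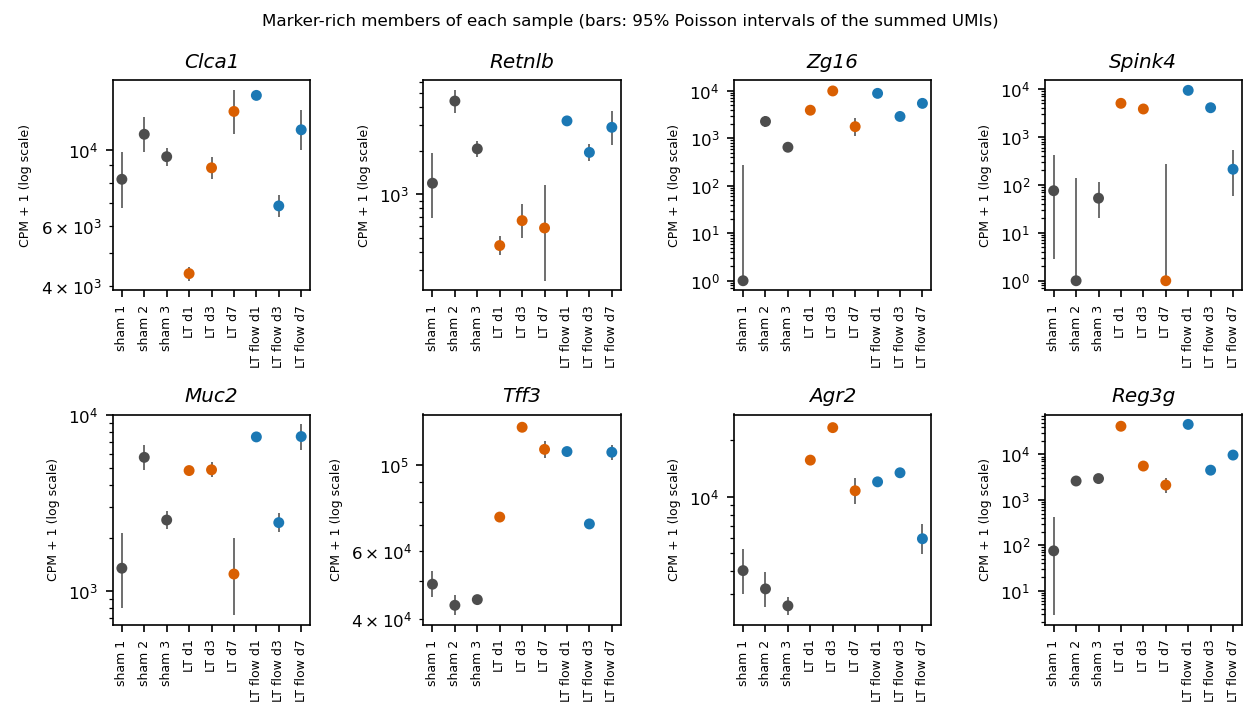
CPM (with 1 added, log scale) of 8 genes in the marker-rich members of each sample, with 95% Poisson intervals of the summed UMIs that cover counting error only (grey sham, orange LT, blue LT flow). Agr2 and Tff3 are higher in every transplanted sample than in every sham sample at this line. Of the rule genes, which chose the members, Retnlb is lower in LT than in LT flow and Spink4 is low in sham and at day 7. Their values are a description with no test.

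Whether gene expression of members changed after transplantation was tested on UMIs summed over the members of each sample. The samples with at least 20 members left no test, because only 1 sham sample qualified, so all 9 samples with 6 to 132 members entered the fit. Most of the summed UMIs came from the deep marker-poor barcodes: marker-rich members carried 64.9%, 25.2% and 38.5% of the member UMIs in sham and 7.45% to 40.5% in the transplanted samples. The sham sums were small, and 1 UMI was worth 48.3 CPM in sham 1. The rule also picked different cells by group, since Clca1 with Spink4 alone brought in 119 transplanted and 2 sham members, so that change within a cell type and the mix of cells picked cannot be told apart in this fit. Of 3929 genes tested with edgeR's quasi-likelihood test, 11 rose (0.28%) and 17 fell (0.433%) in transplanted against sham members at a Benjamini-Hochberg adjusted p under 0.05.

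Genes that rose included Agr2, the water channel gene Aqp5, the defense gene Lcn2, the gastrokine gene Gkn3 and the chloride carrier gene Slc12a2. Agr2 stood at 2658, 1272 and 1477 CPM in sham members, at 7311, 7831 and 2097 CPM in LT and at 6853, 7345 and 11554 CPM in LT flow (log2 change 2.14, SE 0.41, adjusted p = 0.0293, between 1.88e-08 and 0.192 over its alternatives). LT day 7 lay within the sham range and the other 5 transplanted samples above it. Aqp5 ranged from 48.3 to 173 CPM in sham and from 310.5 to 1474 CPM in transplanted members (log2 change 3.00, SE 0.48, adjusted p = 0.0157). Lcn2, an iron-withholding antimicrobial protein, ranged from 106 to 338 and from 561 to 2386 CPM (log2 change 3.12, SE 0.51, adjusted p = 0.0157). Both genes separated the groups without overlap, as did 8.09% of all 3929 tested genes. In marker-rich members alone both overlapped. There Aqp5 stood at 25.8 to 497 CPM in sham and 0 to 1406 CPM in transplanted samples. Lcn2 stood at 34.4 to 650 and 0 to 3360 CPM.

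Gkn3, a gastrokine of the stomach mucosa, had the largest rise, from 16.6 to 48.3 CPM in sham to between 91.7 and 1366 CPM in transplanted members (log2 change 4.53, SE 0.73, adjusted p = 0.0157). In marker-rich members its ranges overlapped, at 0 to 74.5 CPM in sham and 52.7 to 2383 CPM in transplanted samples. There 38.1% of its transplanted UMIs came from 1 barcode. Gpx2, the glutathione peroxidase of gut epithelium, rose from 1305 to 3342 CPM in sham to between 4912 and 11143 CPM (log2 change 1.88). Slc12a2, the basolateral chloride carrier of secretory epithelia, rose by 1.91, the tight junction gene Cldn2 by 2.93, the secreted peptide gene Fam3d by 2.02, the folding gene Sdf2l1 by 3.12, the glycolytic gene Pgk1 by 2.38 and the unnamed feature AABR07025010.1 by 2.16 on the log2 scale.

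When Spink4 was not used in the rule, 14 of the 28 genes could be tested and 13 of these were not called. Gkn3, Cldn2 and Sdf2l1 were among the genes that could not be tested. An alternative chosen after seeing the data took members with at least 2 of Clca1, Zg16 and Retnlb, which left 5, 12 and 46 members in the sham samples, 1, 6 and 15 of them marker-poor, and 5 to 94 in the transplanted samples, 0 to 3 of them marker-poor. It called 15 of 1651 genes by edgeR, 13 beside Clca1 and Zg16, which choose the cells here and carry no test. Of the 14 genes tested, 13 kept their sign and 1 was called, Agr2 (log2 change 3.10, adjusted p = 0.00145). Aqp5 changed by -0.18 (adjusted p = 0.964), Lcn2 by 1.93 (0.503), Gpx2 by 0.44 (0.922) and Slc12a2 by 1.03 (0.652), and among the falls Hspb1 by -1.46 (0.305) and Marcks by -1.51 (0.320). Other genes not called there changed about as much as under the full rule, Fam3d by 2.24 (0.0803), Crip2 by -2.21 (0.0538) and Gas6 by -1.73 (0.109). The calls it added included the goblet genes Spdef, Tff3 (log2 change 2.69), Muc2 (2.54), Galnt6 (2.61) and Muc13 (2.48), all higher in transplanted members, with adjusted p between 0.00697 and 0.0475. Under the full rule, marker-poor barcodes made up 22 of the 65 sham and 104 of the 300 transplanted members. Once Spink4 was not used, the mix of barcodes moved with the groups. Muc2 was detected in 85.4% of marker-rich and 3.97% of marker-poor members under the full rule. Zg16, still in the rule, was detected in 12.3% of immune and 15.3% of epithelial barcodes of sham 3. Change within a cell type and the mix of barcodes thus cannot be told apart in the added goblet calls. The part of the mix was not tested.

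Genes that fell included Hspb1, Kitlg, Marcks and Ltc4s. Hspb1, a small heat shock protein, stood at 460 to 954 CPM in sham and 85.4 to 204 CPM in transplanted members (log2 change -2.13, SE 0.32, adjusted p = 0.0157). Kitlg, the stem cell factor gene, stood at 96.6, 96.3 and 89.4 CPM in sham and 13.6 to 28.1 CPM in transplanted members (log2 change -1.96, SE 0.34, adjusted p = 0.0157). Marcks stood at 106 to 387 and 0 to 57.7 CPM. Ltc4s, which makes leukotriene C4 and is used by tuft cells, stood at 725, 77.1 and 36.4 CPM in sham members and at 0 to 7.57 CPM in transplanted members (log2 change -5.22). Ltc4s was detected in 6 of 65 sham members with 44.1% of its UMIs in 1 barcode. The sham 1 value came from the single marker-poor barcode of that sample, which the doublet score marked. With doublets removed, 27 of the 28 genes could be tested and Ltc4s was not among them. The other named falls were Gsta1, Kcnh2, Aldh1a1, Ada, Tex49, Pmp22, Rnd1, Cldn1, Cish and Akr7a3, by 1.99 to 3.63 on the log2 scale.

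**Figure D5:**
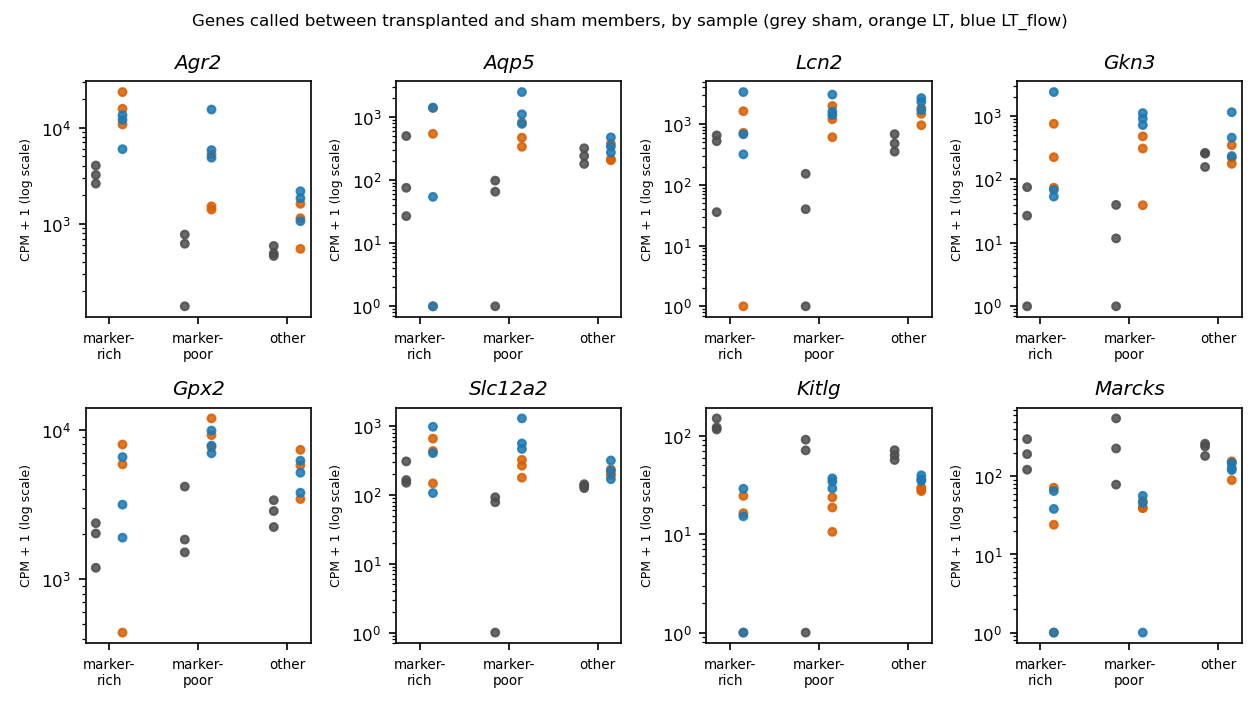
CPM (with 1 added, log scale) of 8 of the 28 genes called between transplanted and sham members, by sample, in marker-rich members, marker-poor members and other epithelial barcodes (grey sham, orange LT, blue LT flow). Agr2, Kitlg and Marcks separate sham from transplanted samples in the marker-rich members, with Kitlg and Marcks at 0 UMIs in both day 7 samples. Aqp5 and Lcn2 overlap in the marker-rich members and separate in the marker-poor members.

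Sample ranges of sham and transplanted members did not overlap for 23 of the 28 genes, against 8.09% of all 3929 tested genes. The same contrast chose the 28, so the counts are a description. In marker-poor members alone the ranges did not overlap for 14 genes (8.55% of all tested genes), in other epithelial barcodes for 13 (15.5%) and in marker-rich members for 9 (3.33%), which were Agr2, AABR07025010.1, Kitlg, Marcks, Cldn1, Pmp22, Kcnh2, Gas6 and Crip2. Gas6 and Crip2 were the smallest of the 17 falls and are named for completeness after their values were seen. Kitlg, Marcks, Cldn1 and Pmp22 had 0 UMIs in the marker-rich members of both day 7 samples, sums of 13683 and 18979 UMIs. There a limit of 3 counts lies within or above their sham ranges. Tuft genes moved with the groups: the summed level of 10 tuft genes was 33.1 to 773 CPM in sham members and 0 to 22.2 CPM in transplanted members, with Chat at 0. In the marker-rich members it was 0 to 8.61 and 0 to 25.6 CPM. The 773 CPM was that of sham 1 and came from its single marker-poor barcode, which the doublet score marked. The other sham samples stood at 33.1 and 57.8 CPM. The 10 stromal and endothelial genes summed to 154 to 1063 CPM in sham and 9.59 to 507 CPM in transplanted members, with Dcn at 0 by the rule, and the 12 immune genes to 38.5 to 4059 and 128 to 2271 CPM, with Ptprc at 0 by the rule and Cxcr2 and Jchain at 0. In the marker-rich members the stromal and endothelial genes summed to 153 to 1639 CPM in sham and 0 to 6285 CPM in transplanted samples, and the immune genes to 0 to 1490 and 73.1 to 5827 CPM. Their part in the 28 calls was not tested.

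The goblet lists showed few calls between sham and transplanted members. Among secretory products, 1 of 10 tested genes rose, Agr2, and 0 fell, with a median log2 change of 0.26. Of 12 lineage factors and 15 glycosylation and folding genes tested, 0 passed, with median log2 changes of 0.15 and 0.64, against 0.01 over all 3929 genes. Muc2 changed by 0.25 (SE 0.80), Tff3 by 0.63 (SE 0.42) and Spdef by 1.56 (SE 0.51), with edgeR adjusted p of 0.936, 0.533 and 0.189. In gastric and pyloric genes, 2 of 5 rose, Gkn3 and Aqp5. One gene rose in each of the unfolded protein response (Sdf2l1, of 17), mucosal defense (Lcn2, of 12), hypoxia and glycolysis (Pgk1, of 17), ion transport (Slc12a2, of 9) and oxidative defense (Gpx2, of 10) lists, and no gene of these lists fell.

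The count of 28 depended on single samples, and with library size alone 10 genes rose and 28 fell. It was 7 without sham 3 and 11 without sham 2, of which 4 and 3 were among the 28, and 121 without sham 1 and 61 without LT day 7, each with 27 of the 28. Against LT alone, 1 gene was called of the 26 that could be tested. None of the 28 was called with every single sample left out, and 1, Aqp5, changed sign in any of the 16 alternatives in which it could be tested.

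Whether these changes were particular to members was tested against the other epithelial barcodes of the same samples, as the difference of the 2 changes with the sample as a block. Over 12085 genes, the change was higher in members for 22 (0.182%) and lower for 133 (1.1%) by edgeR, and 13 of the 28 genes were among these. In the other epithelial barcodes alone, 261 of 14066 genes rose (1.86%) and 406 fell (2.89%). Aqp5 rose more in members by 2.86 on the log2 scale (SE 0.36, adjusted p = 1.23e-11), and its change in other epithelial barcodes was 0.56 (adjusted p = 0.327). Cldn2, Lcn2 and Gpx2 rose more by 2.36, 1.41 and 1.20. Ltc4s, Cldn1, Pmp22, Ada, Rnd1, Aldh1a1, Tex49 and Hspb1 fell more, by 1.42 to 2.57. For Agr2 the difference was 0.82 (SE 0.27, adjusted p = 0.115), and Agr2 changed by 1.66 (SE 0.41, adjusted p = 0.0530) in the other epithelial barcodes. Without sham 3 the difference was called for 66 genes, without LT day 1 for 87 and without sham 1 for 236, against 155. With Spink4 not used in the rule it was called for 67 genes, 2 of them among the 28, Ltc4s and Ada. The sham 1 barcode marked by the doublet score stayed in that fit. Of the 13 genes, all 4 that rose more in members then had a negative difference, Aqp5 of -0.28, Cldn2 of -0.16, Lcn2 of -0.43 and Gpx2 of -1.15 (edgeR adjusted p between 0.606 and 0.998). All 9 that fell more kept their sign, among them Cldn1 (-2.35), Pmp22 (-2.62) and Tex49 (-2.33), with adjusted p between 0.0647 and 0.0800.

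No gene passed between LT flow and LT members (0 of 3929, 0%, by edgeR), while 129 had an unadjusted p under 0.05 and DESeq2 called 1. The highest fitted change among genes with at least 50 CPM was that of Retnlb, a rule gene and so a description, at a log2 change of 2.85. Retnlb stood at 87.8, 190 and 43.6 CPM in LT members and at 901, 393 and 1175 CPM in LT flow members. The next were S100a8 (2.36), Gsta1 (2.07), Gp2 (1.93) and Il1b (1.92), and the lowest were Krt17 (-3.80), Ly6d (-3.76), Bnip3 (-2.55), Slc16a3 (-2.38) and Serpinb6a (-2.36). These 9 genes had adjusted p from 0.985 to 0.999.

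No gene passed between day 7 and day 1 members either (0 of 4633, 0%, by edgeR), with 367 at an unadjusted p under 0.05 and 17 called by DESeq2. Each day held 1 LT and 1 LT flow sample, pooled in this contrast, and the day 7 sums held 10 and 8 members. The highest fitted changes were those of Tagln (8.50), Ubd (5.96), RT1-Ba (5.85), Krt17 (5.06) and Cd74 (4.97), with adjusted p from 0.337 to 0.480. Cd74, the class II invariant chain, stood at 8.58 and 56.7 CPM at day 1 of LT and LT flow and at 1476 and 513 CPM at day 7, where it was detected in 7 of 10 and 6 of 8 members. The rise was not particular to members. In all epithelial barcodes, 19 of 28 interferon and antigen presentation genes rose at day 7 by edgeR, against 3.25% of all genes. Their median log2 change was 2.18, against 1.84 over the 21 tested in members, where 0 passed. The calls in all epithelial barcodes depended on single samples, as given below. All 190 Tagln UMIs of LT day 7 came from 1 barcode. The lowest were Spp1, Clu, Pla2g4c, Ndufa4l2 and Ccl4. Spp1, the osteopontin gene, was at 1522 and 1222 CPM at day 1 and had 0 UMIs at day 7, which allows up to 16.3 CPM in LT and 64.1 CPM in LT flow.

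Sums over all epithelial barcodes, members included, gave the output of the whole epithelium, most of it from barcodes that were not members. The number of goblet-like cells, RNA per cell, RNA of other epithelial barcodes and free RNA cannot be told apart in these sums. With the members left out, 261 of 14066 genes rose (1.86%) and 406 fell (2.89%) between transplanted and sham samples by edgeR. With them included, 263 of 14097 genes rose (1.87%) and 413 fell (2.93%). These 676 calls became 20 without sham 2, 66 without sham 3, 205 without sham 1, 198 without LT flow day 3, 242 without LT day 3, 337 without LT day 1, 420 without LT flow day 1 and 1899 with DESeq2. Scaled by library size alone, 133 rose and 695 fell, with the median log2 change of all genes at -0.23. Genes of other cell types moved with the groups in these sums: 6 of 10 tuft genes fell (median log2 change -2.33), 2 of 9 acinar genes (-5.02) and 1 of 12 enteroendocrine and islet genes (-2.52), while 1 of 11 immune genes rose (1.55). Their part in the calls was not tested. Among goblet secretory products, 1 of 15 rose, Muc13 (log2 change 1.90, adjusted p = 0.0224), and 1 fell, Guca2a (-1.69, adjusted p = 0.0385). Of 23 glycosylation and folding genes 4 rose, among them Galnt6 (1.89, adjusted p = 0.0154) and Fut2 (1.27, adjusted p = 0.0179), and 0 fell. Agr2 changed by 1.75 (adjusted p = 0.0528, 0.000358 by DESeq2 and up to 0.151 over its alternatives).

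Between day 7 and day 1, each made up of 1 LT and 1 LT flow sample, 471 of 14503 genes rose (3.25%) and 622 fell (4.29%) in the whole epithelium by edgeR. These 1093 calls became 5 without LT day 1, 6 without LT flow day 1, 16 without LT day 7, 35 without LT flow day 7, 85 without sham 2, 403 without sham 3, 1912 without sham 1 and 2476 with DESeq2. Scaled by library size alone, 659 rose and 168 fell, with the median log2 change at 0.25, so the balance of rises and falls depended on the scaling. Spink4 fell by 6.79 on the log2 scale (SE 0.93, adjusted p = 0.0171, called in 5 of 9 fits with a sample left out), Reg3g by 2.41 (SE 0.45, adjusted p = 0.0264, called in 4 of 9) and Agr2 by 1.43 (SE 0.35, adjusted p = 0.0496, between 0.000955 and 0.247 over its alternatives). Muc2 changed by -3.80 (SE 0.95, adjusted p = 0.0505) and Retnlb by -3.80 (SE 1.13, adjusted p = 0.0775). Of 16 secretory products tested, 1 fell, Agr2, and 0 rose. Between LT flow and LT, 0 of 14097 genes passed by edgeR, with 1031 at an unadjusted p under 0.05, 120 called by DESeq2 and 33 called by edgeR without LT day 7.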

How the data were processed

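The deposited values of the 20 libraries were raw UMI counts, 1 per feature and droplet barcode, with empty droplets kept and no scaling applied. The submitters' processing notes name Cell Ranger 5.0.1 and Seurat 3.2.0. The matrix headers name another Cell Ranger release, and the genome build and annotation are not given in the sources used here, so no coordinates are printed. The matrix of LT flow day 3 library 1 was not analysed here. The 23999 features carry 23836 symbols, and counts of features sharing a symbol were added. Muc2 is the feature AABR07006030.1 (ENSRNOG00000046602), paired through RefSeq synonyms. No per-sample column was left unused.

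Members and gene lists were chosen with earlier results of these data known. Marker-rich members had at least 10 marker UMIs per 10000. Shares were compared with two-sided exact permutation tests over samples. Summed counts were tested with edgeR 4.0.16 (R 4.3.3; TMM scaling, filterByExpr, robust quasi-likelihood, Benjamini-Hochberg over all genes tested, threshold 0.05) with all groups in 1 fit. The planned fit on samples with at least 20 members kept 1 sham sample, 1 LT sample and no day 7 sample, which left no test, also with libraries taken apart or at least 3 of 4 markers. The fit on all 9 samples, the fits on all epithelial barcodes and the marker-rich division were chosen after seeing the data. On simulated counts for the comparison of transplanted with sham members (3929 genes), 10.6%, 71.6% and 92.5% of changes of 1, 2 and 3 on the log2 scale were recovered, and 11 unchanged genes were called.

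Named genes were the 15 largest rises and falls past the threshold, or the 5 highest and lowest with at least 50 CPM where none passed, the 30 highest and 15 lowest ratios of members to other epithelial barcodes at 100 CPM or more, and genes of the lists. Among these, 1 gene is counted but not reported here. Alternatives were DESeq2 1.42.0, no TMM, no filter, doublets removed (above the 92.5th percentile of a score in each library, 10835 barcodes), thinning to 2000 UMIs, libraries as samples, other marker limits, Spink4 not used in the rule, a day or arm term and leaving out each sample. Intervals are 95% exact binomial or Poisson intervals, and a count of 0 was given a limit of 3 counts. Both cover counting error only. Python 3.11.15 and SciPy 1.17.1 were used for the rest.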

Additional observations from a re-analysis of the deposited data

Results flagged for a closer look

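In 30 sets of the 6 transplanted samples, each 1 called gene or share, 3 had a sample that stood apart by the gap to its nearest neighbour, where chance gives about 1 in 20. Gas6 in members was 128 CPM in LT flow day 7, against 27.2 to 60.1 CPM in the other transplanted samples. That value rests on few UMIs, as the 8 members of LT flow day 7 held 46824 UMIs. Tex49 was 54.5 CPM in LT day 7, against 11.6 to 24.4 CPM. Gsta1 was 48.8 CPM in LT flow day 1, against 0 to 8.08 CPM.

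For 13 of the 28 called genes the change from sham to transplanted samples differed between members and the other epithelial barcodes in the edgeR test of that difference, and 12 of them are given here. With Spink4 not used in the rule, 2 of the 28 passed, Ltc4s and Ada, and the 9 genes with a lower change kept their sign. The change was lower in members by the following log2 amounts, written as member change minus other change: Cldn1 -2.57, Ltc4s -2.21, Pmp22 -2.16, Ada -2.12, Rnd1 -2.05, Aldh1a1 -2.01, Tex49 -1.86 and Hspb1 -1.42. It was higher in members for Gpx2 (1.20), Lcn2 (1.41), Cldn2 (2.36) and Aqp5 (2.86), and these 4 differences turned negative with Spink4 not used (-1.15, -0.43, -0.16 and -0.28).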

How the results depend on the processing

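The sign of the difference in share between LT flow and LT turned with all kept barcodes as the denominator (-0.0415 percentage points) and without the LT day 3 libraries that lost most barcodes to the hemoglobin limit (-0.0277), and it ranged from -0.565 to 0.603 with 1 sample left out. With the samples paired by day as a replicate block it was 0.0671 (exact permutation p = 1); the labels share a day, not an animal. The transplant difference ranged from 0.0115 to 0.699 with 1 sample left out. The 28 genes called between transplanted and sham members became 48 with DESeq2 (26 of the 28 among them), 303 with no filter on low counts, 62 with libraries of at least 5 members as samples, 1 against LT alone, 15 with Spink4 not used in the rule (1 of the 28 among them and Clca1 and Zg16 of the rule itself, with Aqp5 turned to -0.18) and 7 to 121 with 1 sample left out. LT flow against LT gave 1 call with DESeq2, 18 with no filter, 5 with libraries as samples, 1 with day as a replicate block and 0 to 2 with 1 sample left out, against 0. Day 7 against day 1 gave 17, 55 and 41 in the first 3 of these, 5 with doublets removed, 1 with arm as a term and 0 to 8 with 1 sample left out, against 0. The difference between members and other epithelial barcodes gave 66 to 236 calls with 1 sample left out and 67 with Spink4 not used, against 155. For the whole epithelium, the range with 1 sample left out was 20 to 742 calls for transplanted against sham and 5 to 1912 for day 7 against day 1. In marker-rich members the log2 ratio of transplanted to sham turned with at least 3 of 4 markers for Tff3 (-0.0317), Spdef (-0.43), Muc2 (-1.13) and Fcgbp (-0.82) and at 20 marker UMIs per 10000 for Muc2 (-0.62) and Fcgbp (-0.53). The cause of these shifts was not tested. Fewer samples, other genes tested or other members enter some of the alternatives. DESeq2 and library size alone used the same samples, members and genes. The depth of the sham sums limits genes under a few UMIs.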

Other observations

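Outside the rule, 174 epithelial barcodes had Spink4 as their only marker at 10 or more marker UMIs per 10000, all of them from transplanted samples. They had a median of 3926 UMIs, 13288 CPM of Tff3 and 18415 CPM of Agr2, and Muc2 was detected in 4.60% and Fcgbp in 12.1% of them. The 116 such barcodes with Clca1 alone held Muc2 in 17.2% and Fcgbp in 70.7% of barcodes, with 1857 CPM of Agr2. The 142 with Zg16 alone, of which 127 were sham, had a median of 967 UMIs and held Muc2 in 0% and Tff3 in 20.4% of barcodes.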
